A study of Mus musculus with 2 samples.

Results

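T cells without a detected Cd8 transcript were examined in mouse bone marrow, whose single cells had been captured in 10x Genomics droplets and read from the 3′ end of their transcripts. A pair of genotypes were compared, Apoe(-/-) Itgb3(-/-), called the Itgb3-null library here, and Apoe(-/-) Itgb3(+/+), called the control library. Both carried the C57BL/6 strain label, an age of 6 months and the disease label atherosclerosis, and both lacked Apoe, the apolipoprotein whose loss raises plasma cholesterol in mice. Itgb3 encodes integrin β3, which pairs with αv or αIIb on the cell surface. Each genotype was 1 library, how many animals it pools is not stated in the labels, and genotype and library cannot be told apart. No p-value between genotypes is therefore given. Intervals below are 95% intervals that cover counting error only.

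A cell was counted as a member when it had at least 200 genes and at most 10% mitochondrial unique molecular identifiers (UMIs, 1 per captured transcript) and at least 2 UMIs in all of Cd3e, Cd3d, Cd3g, Trac and Trbc2. It also had 0 UMIs of Cd8a and Cd8b1, at most 1 UMI of the natural killer (NK) cell genes Ncr1, Klrb1c, Klre1 and Eomes, and at most 1 UMI of the B cell genes Cd79a and Cd79b. Hemoglobin genes had to be under 5% and S100a8 with S100a9 under 2% of its UMIs. Of 12259 cells in both libraries, 137 were members, 72 of 2974 in the Itgb3-null library and 65 of 9285 in the control library. All of these values chose the members, so the levels of those genes, and the share of cells that passes, are descriptions. At the edges of the rule, 7 Itgb3-null members and 0 control members had exactly 2 T cell UMIs, while 11 Itgb3-null cells and 7 control cells stood outside with 1. A single Cd8 UMI kept 12 Itgb3-null and 5 control cells outside, and 32 Itgb3-null and 74 control cells were outside with 2 or more.

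T cells recognise their targets through a T cell receptor made of an α and a β chain or of a γ and a δ chain. The CD3 proteins carry its signal into the cell. CD4 marks helper and regulatory T cells and CD8 marks killer T cells, while γδ T cells and some innate-like T cells often carry neither. Bone marrow holds few T cells, among them recirculating naive cells, long-lived memory cells and regulatory cells. Type I interferons and interferon γ act on T cells through JAK and STAT proteins, which bring factors to short DNA elements in the promoters of antiviral genes.

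A promoter element of that kind is shown here because interferon-induced genes were among those farthest apart between the libraries. The 5 sequences are the 250 bases before the annotated start of the 5 interferon-list genes with the largest lower bound of the ratio among those with 1 RefSeq promoter entry, on build GRCm38.p6, 5′ to 3′ on the strand of the gene. Capitals mark matches, on either strand, to GAAA, any 2 bases and GAAA, the core of the interferon-stimulated response element, or to TTC, any 3 bases and GAA, the γ-activated site. Cxcl10 encodes a chemokine for CXCR3-bearing T cells (chr5:92348890-92349139, minus strand). Ifit3 (chr19:34583279-34583528, plus strand) and Ifit1 (chr19:34640639-34640888, plus strand) encode antiviral proteins, and Isg15 (chr4:156200819-156201068, minus strand) encodes a ubiquitin-like protein. Irf7 encodes a transcription factor that amplifies the type I response (chr7:141266425-141266674, minus strand).

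Cxcl10: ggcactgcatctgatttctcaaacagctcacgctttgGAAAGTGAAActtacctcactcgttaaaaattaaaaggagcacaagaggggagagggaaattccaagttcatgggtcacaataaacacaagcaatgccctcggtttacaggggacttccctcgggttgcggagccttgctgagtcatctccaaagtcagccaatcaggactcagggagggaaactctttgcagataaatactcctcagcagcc

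Ifit3: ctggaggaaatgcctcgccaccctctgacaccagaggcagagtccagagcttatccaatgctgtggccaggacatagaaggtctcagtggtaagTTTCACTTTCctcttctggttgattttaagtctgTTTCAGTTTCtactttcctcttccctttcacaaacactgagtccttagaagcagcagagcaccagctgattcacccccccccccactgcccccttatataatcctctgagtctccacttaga

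Isg15: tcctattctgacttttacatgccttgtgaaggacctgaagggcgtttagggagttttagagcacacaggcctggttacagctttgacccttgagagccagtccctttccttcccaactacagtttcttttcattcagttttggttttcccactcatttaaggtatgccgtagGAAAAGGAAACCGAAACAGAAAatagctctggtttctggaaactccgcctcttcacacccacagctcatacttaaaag

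Ifit1: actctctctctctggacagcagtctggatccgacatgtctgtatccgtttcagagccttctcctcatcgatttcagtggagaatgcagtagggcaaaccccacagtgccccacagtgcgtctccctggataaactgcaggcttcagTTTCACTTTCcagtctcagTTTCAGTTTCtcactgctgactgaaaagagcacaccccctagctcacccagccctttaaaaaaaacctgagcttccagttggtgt

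Irf7: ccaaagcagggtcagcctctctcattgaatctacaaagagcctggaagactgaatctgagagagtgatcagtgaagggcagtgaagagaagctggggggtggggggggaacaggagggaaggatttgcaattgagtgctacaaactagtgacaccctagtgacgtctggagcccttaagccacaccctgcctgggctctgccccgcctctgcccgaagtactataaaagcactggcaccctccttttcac

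Cxcl10 had 1 match, Ifit3 and Ifit1 had 2 each, Isg15 had 3 that overlap, and Irf7 had none of these letters in its window. In the whole 300-base windows, which run 50 bases past the start, 1079 of 27025 genes (3.99%) had the first motif, and so did 14 of the 21 interferon-list genes (66.7%) that were 2-fold or more higher in the Itgb3-null members and had a window. It was also in 7 of the 13 list genes (53.8%) that were tested and within 2-fold. The γ-activated site was in 2582 of 27025 genes (9.55%), in 5 of those 21 and in 2 of those 13. A match is a description of the letters.

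Members made up 2.42% of Itgb3-null cells (1.90% to 3.04%) and 0.700% of control cells (0.541% to 0.891%), a ratio of 3.46 (2.44 to 4.91). T cells with Cd8 UMIs, chosen by the same rule but with at least 1 such UMI, numbered 44 (1.48%) in the Itgb3-null library and 79 (0.851%) in the control library, a ratio of 1.74 (1.17 to 2.55). Among T cells of both kinds, 72 of 116 (62.1%) in the Itgb3-null library and 65 of 144 (45.1%) in the control library had no Cd8 UMI. B cells, gated by Cd79a and Cd79b, were 22.6% of Itgb3-null and 20.8% of control cells. Fewer cells of other types in a library raise a share as much as more T cells do, and these cannot be told apart.

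Depth differed between the libraries. Members held a median of 7175 UMIs (622 to 34920) and 2101 genes in the Itgb3-null library, against 3027 UMIs (739 to 19859) and 1226 genes in the control library. Their UMIs summed to 592819 and 221903, so that 1 UMI stood for 1.69 CPM (UMIs of a gene per 1000000 UMIs) in the Itgb3-null sum and 4.51 CPM in the control sum. The libraries shared 11 cell barcodes, and 1 Itgb3-null member had such a barcode. Shares called thinned are of cells reduced to 2000 UMIs each, which left out 3 Itgb3-null and 12 control members and kept 69 and 53. Other counts of cells with a UMI are at full depth, where a cell of the deeper Itgb3-null library is more likely to show a gene. Free RNA in the droplets, read from the neutrophil granule genes Ngp, Camp, Ltf, Elane and Mpo, stood in members at 0.353% of its level over all barcodes in the Itgb3-null library and at 1.31% in the control library.

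A few members also carried 10 or more UMIs of a marker set of another cell type. The sets counted were monocyte and macrophage, erythroid without globins, stem cell, thymocyte and MHC class II genes. NK, innate lymphoid, neutrophil, B cell, plasma cell and plasmacytoid dendritic cell lists were not counted. Members high in those lists remain in values without the members bearing other markers. In Itgb3-null members the NK list, which includes Gzma, reached 88 UMIs in 1 cell, and 11 without Gzma. In the Itgb3-null library 1 member with 17651 UMIs had 115 UMIs of the MHC class II genes H2-Aa, H2-Ab1 and H2-Eb1 and 94 of the neutrophil list beside 40 T cell UMIs, and 1 with 6085 UMIs had 16 class II UMIs and 20 of the innate lymphoid list. In the control library 1 member had 243 monocyte and macrophage UMIs, of which 213 were Lyz2, 1 had 197 erythroid UMIs without globins, and 1 had 41 thymocyte and 17 stem cell UMIs. These 2 Itgb3-null members held 23736 of the 592819 members' UMIs, and these 3 control members held 41593 of 221903, or 18.7%. Summed over all members, erythroid list genes stood at 864 CPM in Itgb3-null and 5980 CPM in control members (775 of 1327 control UMIs in 1 cell), neutrophil genes at 462 and 1104 CPM, and B cell genes at 121 and 433 CPM. Plasma cell genes stood at 92.8 CPM in Itgb3-null and 49.6 CPM in control members. Plasmacytoid dendritic cell genes stood at 304 and 113 CPM, and at 6.75 and 36.1 CPM without Bst2 and Irf8, which the interferon lists also hold. The part of such RNA in the results was not tested. Named results between the libraries that turn on them are given with and without them. The comparison with T cells with Cd8 UMIs within each library was made only with them.

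CD3 and receptor transcripts chose these cells, so their presence does not check the label, and a Cd4 UMI was detected in a minority. Trbc2, a β chain constant gene, was found in 61 of 72 Itgb3-null and 62 of 65 control members, and Cd3d in 60 and 58. At 2000 UMIs, Cd3g was found in 0 of 666 Itgb3-null and 1 of 1330 control B cells, and Cd3e in none of either. Cd4 had 10 UMIs in 8 of 72 Itgb3-null members, against 23 UMIs in 19 of 65 control members. After thinning it was found in 2 of 69 Itgb3-null members (2.90%) and 15 of 53 control members (28.3%), while B cells stood at 0 of 666 and 1 of 1330. Il7r, the interleukin-7 receptor chain of naive and memory T cells, was found in 49.3% of Itgb3-null and 50.9% of control members at that depth, but also in 37.5% and 32.3% of B cells, which include precursors that use it. Cd4 transcripts are sparse in 3′ libraries, so a cell without a Cd4 UMI is not shown to lack CD4.

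**Figure D1:**
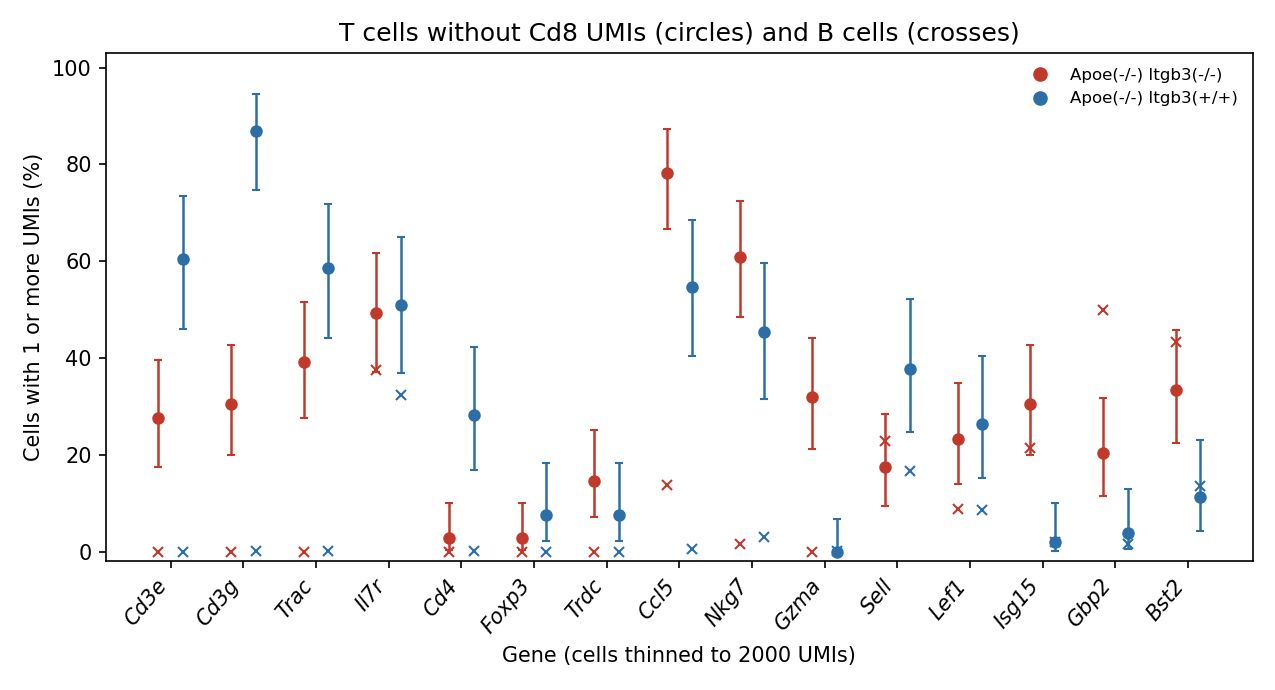
Share of cells with 1 or more UMIs of each gene after thinning to 2000 UMIs, as circles for T cells without Cd8 UMIs (69 Itgb3-null in red, 53 control in blue) with Clopper-Pearson 95% intervals, and as crosses for B cells. Cd4 stands at 2.90% in Itgb3-null and 28.3% in control members, and Gzma at 31.9% in Itgb3-null and 0 in control members.

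Every CD3 and receptor gene had a lower point value in the Itgb3-null members. Cd3g (chr9:44969572-44980431, minus strand) was the farthest apart, with 123 UMIs or 207 CPM in the Itgb3-null members and 205 UMIs or 924 CPM in control members. Thinned, it was found in 21 of 69 Itgb3-null and 46 of 53 control members. Cd3e was at 170 CPM in Itgb3-null and 374 CPM in control members, and Cd3d at 476 and 951 CPM. Trac, the α chain constant gene, was closest, at 369 CPM in Itgb3-null and 442 CPM in control members (log2 ratio -0.26), and under TMM scaling it was 0.08. These genes chose the members, so nothing is drawn from their levels. Cd3g was lower in Itgb3-null T cells with Cd8 UMIs too, at 288 CPM against 818 CPM in control ones, and it was among the genes that chose those cells.

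Among signalling genes downstream of the receptor, Skap1, an adaptor that links the receptor to integrins, was at 99.5 CPM in Itgb3-null and 482 CPM in control members. Lat, the scaffold phosphorylated after receptor engagement, was at 89.4 CPM in Itgb3-null and 329 CPM in control members. Ptpn22, a phosphatase that restrains receptor signals, went the other way, with 421 UMIs in 66 Itgb3-null members and 41 UMIs in 28 control members, or 710 CPM against 185 CPM. Of 14 tested genes of this list, 1 was 2-fold or more higher and 5 were 2-fold or more lower in Itgb3-null members. A gene was tested where it had at least 30 UMIs over both libraries and 50 CPM in either, which 3130 genes did. Of these, 342 (10.9%) were 2-fold or more higher and 496 (15.8%) 2-fold or more lower in Itgb3-null members, and the median log2 ratio was -0.15.

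That balance depends on the scaling. With TMM factors the median of all tested genes was 0.24, a shift of the whole scale, and 68.7% of the 2-fold calls were on the higher side, against 40.8% with CPM. List medians are therefore read beside the median of all genes in the same scaling. Of the 342 higher genes, 10 (2.92%) had over 50% of their Itgb3-null UMIs in 1 cell, and 28 of the 496 lower genes (5.65%) had over 50% of their control UMIs in 1 cell.

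**Figure D2:**
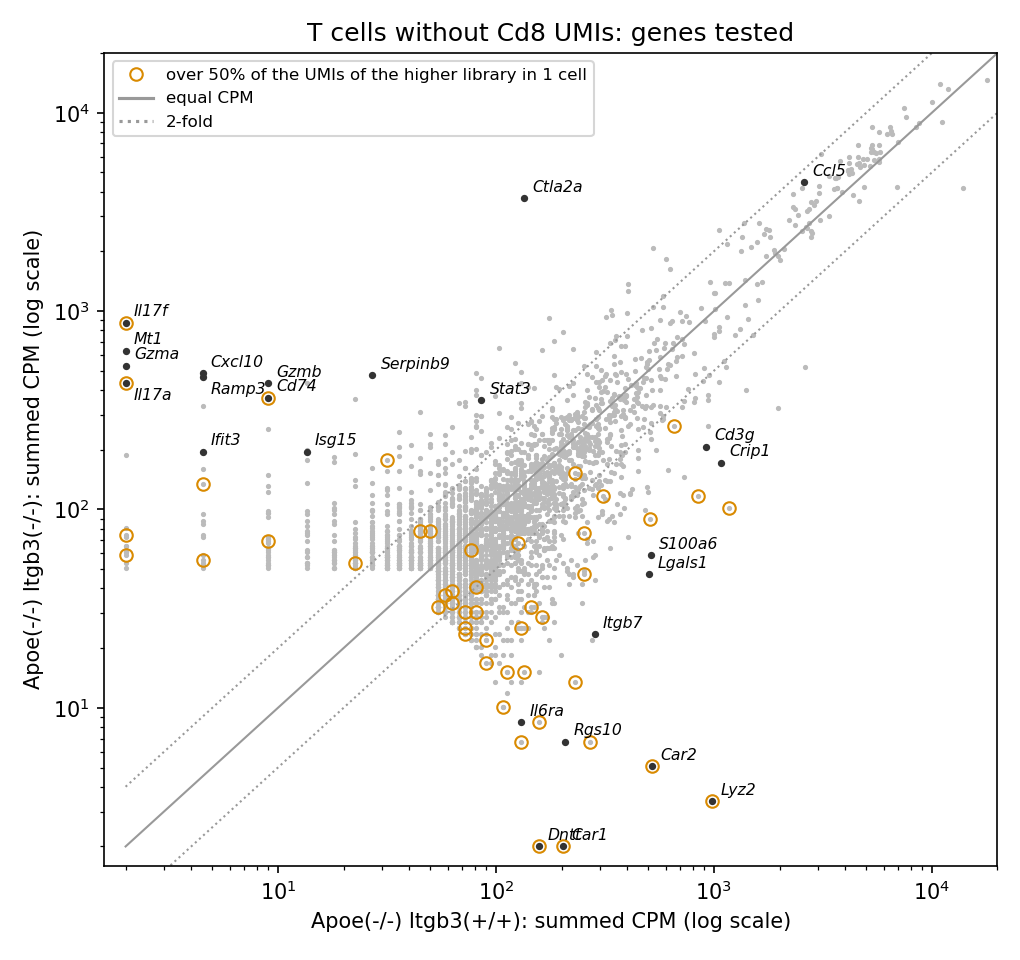
Summed CPM of each tested gene in Itgb3-null members (vertical, log scale) against control members (horizontal, log scale), with values of 0 drawn at 2 CPM. Open orange circles mark genes with over 50% of the UMIs of the higher library in 1 cell, among them Il17f, Il17a and Cd74 above the line and Lyz2, Car2, Car1 and Dntt below it, and dotted lines mark 2-fold.

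T cells that carry neither CD4 nor CD8 include γδ T cells, and their constant genes were found in both libraries. Trdc, the δ chain constant gene, had 77 UMIs in 11 of 72 Itgb3-null members and 26 UMIs in 7 of 65 control members, or 130 CPM and 117 CPM, a log2 ratio of 0.15 that was -0.09 without the members bearing other markers. Thinned, it was found in 14.5% of Itgb3-null and 7.55% of control members, with overlapping intervals, and in 0 of 666 and 0 of 1330 B cells. Of the Trdc cells 1 in each library also had a Trac UMI, and none had a Cd4 UMI. Trbc2, a β chain gene of the rule, was found in 9 of 11 Itgb3-null and 6 of 7 control Trdc cells. In the other members it was found in 52 of 61 and 56 of 58. At full depth a UMI of any γ or δ constant gene was found in 24 Itgb3-null and 18 control members. These γ chain genes are near copies of each other, so reads may be shared between them, and β chain T cells can transcribe them. Zbtb16, the transcription factor of innate-like T cells, was found in 6 Itgb3-null and 4 control members. No UMI of Cd4, Zbtb16 or a γδ constant gene was found in 38 of 72 Itgb3-null and 31 of 65 control members at full depth, and in 50 of 69 (72.5%) and 27 of 53 (50.9%) after thinning. Thinned, a γδ constant gene was found in 18 of 69 Itgb3-null and 13 of 53 control members, and Zbtb16 in 1 and 2.

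The genes below were read at full depth in Trdc cells and in the other members. Ccl5 was found in 10 of 11 Itgb3-null Trdc cells and 52 of 61 other Itgb3-null members, and in 6 of 7 control Trdc cells and 26 of 58 other control members. Nkg7, a granule membrane protein, was found in 10 of 11 and 47 of 61 in the Itgb3-null library, and in 7 of 7 and 28 of 58 in the control library. Il2rb, the interleukin-2 receptor β chain, was found in 11 of 11 and 54 of 61 in the Itgb3-null library, and in 5 of 7 and 34 of 58 in the control library. Each of these 3 genes was found in most Itgb3-null members with Trdc and in most without it. Cd5, a brake on receptor signals in αβ T cells, was found in 0 of 11 Itgb3-null and 0 of 7 control Trdc cells, and in 5 of 61 and 15 of 58 of the other members. Gzma was found in 4 of 11 Itgb3-null and 0 of 7 control Trdc cells, and in 28 of 61 and 0 of 58 of the other members.

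Regulatory T cells are defined by Foxp3, which had 7 UMIs in 2 Itgb3-null members and 14 UMIs in 9 control members. Of the 7 Itgb3-null UMIs, 5 were in the member with class II and neutrophil transcripts. Thinned, Foxp3 was found in 2 of 69 Itgb3-null and 4 of 53 control members, with overlapping intervals. Izumo1r, a folate receptor family protein of regulatory T cells, had 8 UMIs in 7 Itgb3-null members and 22 UMIs in 17 control members, or 13.5 and 99.1 CPM. Ikzf2, the Helios transcription factor, was at 182 CPM in Itgb3-null and 451 CPM in control members. Checkpoint and costimulatory receptors that regulatory cells also carry went the other way. Ctla4, an inhibitory receptor, had 225 UMIs in 46 Itgb3-null members and 18 UMIs in 11 control members, or 380 and 81.1 CPM. Tnfrsf9, the costimulatory receptor 4-1BB, had 95 UMIs in 29 Itgb3-null members and 1 UMI in 1 control member, a CPM ratio of 35.6 (6.23 to 1419). Without the members bearing other markers the log2 ratio of Ctla4 was 1.71 and that of Tnfrsf9 4.45. Cd27, a costimulatory receptor of resting T cells, was at 43.9 CPM in Itgb3-null and 284 CPM in control members.

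Cytokine transcripts were concentrated in few cells. In the Itgb3-null library 1 member held 518 of 519 Il17f UMIs and all 257 Il17a UMIs of the members, and these neighbouring genes (chr1:20777146-20790617, minus strand, and chr1:20730905-20734496, plus strand) encode the inflammatory cytokines IL-17F and IL-17A. That cell had 11467 UMIs, among them 44 of the cytokine gene Il22 and 36 of Ctla4. It also had 16 each of Icos and the IL-2 receptor gene Il2ra, 11 of Rora and 2 of Il23r. All 15 of its T cell UMIs of the rule were Trbc2, so it had none of Cd3e, Cd3d, Cd3g or Trac. It also had none of Trdc, Cd4 or the γ constant genes. Whether it was a T cell or an innate lymphoid cell was not tested. No other member had Il17a or Il22, the whole control library had 0 UMIs of Il17a and 5 of Il17f, and Il17a was found in 3 cells of the Itgb3-null library. With a mitochondrial limit of 5%, or with the highest doublet scores removed, this cell was no longer a member, and its genes describe 1 of 72 members. Ifng, encoding interferon γ, had 32 UMIs in 10 Itgb3-null members, 20 of them in 1 cell, and 5 UMIs in 3 control members, a CPM ratio with a counting interval of 0.93 to 7.88.

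Cytotoxic effector genes were split. Gzma (granzyme A, chr13:113093825-113100981, minus strand) had 315 UMIs in 32 of 72 Itgb3-null members and 0 UMIs in 65 control members, so it was at least 39.3-fold higher against a floor of 3 UMIs over the control members. Its highest cell held 80 of the 315 UMIs. Thinned, it was found in 22 of 69 Itgb3-null and 0 of 53 control members, where 0 of 53 allows a share of cells with a UMI of up to 5.66% by the floor of 3 cells and 6.72% by the Clopper-Pearson interval, and in 0 of 666 and 1 of 1330 B cells. Gzmb (granzyme B, chr14:56258838-56262260, minus strand) had 256 UMIs in 33 Itgb3-null members and 2 UMIs in 1 control member, or 432 and 9.01 CPM. Fasl, a death ligand, was at 82.7 CPM in Itgb3-null and 13.5 CPM in control members, Prf1, the pore former perforin, at 60.7 and 9.01 CPM, and Klrk1, the activating receptor NKG2D, at 248 and 85.6 CPM. In the opposite direction stood Klrd1, the CD94 chain of NK receptors, at 55.7 CPM in Itgb3-null and 221 CPM in control members, and Ctsw, a cathepsin of killer cells, at 45.5 and 162 CPM. Of 10 tested genes in the list 5 were 2-fold or more higher and 3 lower in Itgb3-null members, with a median of 1.16. The shares of all tested genes were 10.9% higher and 15.8% lower.

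Gzma is also one of the NK markers. The 9 genes of the NK list, which includes Gzma, had 411 UMIs (693 CPM) in 47 Itgb3-null members and 29 UMIs (131 CPM) in 20 control members, of which Gzma gave 315 and 0. Without Gzma the other 8 had 96 UMIs (162 CPM) in 38 Itgb3-null members and 29 UMIs (131 CPM) in 20 control members, and Ncr1, limited by the rule, was at 0 in both. A single UMI of the 4 NK genes of the rule was held by 27 Itgb3-null and 14 control members. The part of NK cells in the granzyme values was not tested. With at least 3 T cell UMIs required, which removed 7 Itgb3-null members, the log2 ratio of Gzma was 4.89 and the list median 0.65. In T cells with Cd8 UMIs Gzma had 280 UMIs in 17 of 44 Itgb3-null cells and 1 UMI in 1 of 79 control cells, Gzmb had 362 and 0 UMIs, and Prf1 was at 52.9 and 48.1 CPM.

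Ccl5, a chemokine stored by memory and killer T cells, was found in 62 of 72 Itgb3-null and 32 of 65 control members, and thinned in 54 of 69 (78.3%) and 29 of 53 (54.7%). Itgb3-null B cells had it in 13.7% and control B cells in 0.451% at that depth. Its summed level was 4487 CPM in Itgb3-null and 2596 CPM in control members, a log2 ratio of 0.79. The Itgb3-null member with class II transcripts held 532 of the 2660 UMIs, and without the members bearing other markers the log2 ratio was 0.25.

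Several genes with the largest gaps belong to no list. Ctla2a, a cathepsin inhibitor-like protein of activated mouse lymphocytes (chr13:60934155-60936625, minus strand), had 2192 UMIs in 61 Itgb3-null members and 30 UMIs in 17 control members. That made 3698 CPM in Itgb3-null and 135 CPM in control members, a ratio of 27.4 (19.1 to 40.6), and the highest cell held 136 UMIs. In T cells with Cd8 UMIs it was at 1600 CPM in the Itgb3-null and 235 CPM in the control library. Ctla2a has a near copy, Ctla2b, and reads may be shared between them. Ramp3, a partner of the calcitonin-receptor-like receptor, had 275 UMIs in 44 Itgb3-null members and 1 UMI in 1 control member. Serpinb9, the inhibitor that protects killer cells from granzyme B, had 283 UMIs in 54 Itgb3-null members and 6 UMIs in 6 control members. Dgat1, an enzyme of triglyceride synthesis, had 256 UMIs in 51 Itgb3-null members and 3 UMIs in 3 control members, and Furin, a protease that processes secreted proteins, had 151 UMIs in 44 and 2 UMIs in 2. Mt1, a zinc-binding metallothionein, had 375 UMIs in 29 Itgb3-null members, 161 of them in the member with class II transcripts, and 0 UMIs in control members. Cd74, the class II invariant chain, had 217 UMIs in Itgb3-null members, of which 175 were in that same member, and 2 UMIs in control members. Its log2 ratio was 5.34 with all members and 1.80 without those bearing other markers.

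Interferon-induced genes were higher in Itgb3-null members in both lists. Of 27 tested genes of the type I list, 16 were 2-fold or more higher and 0 lower, against 10.9% and 15.8% of all tested genes, with a median log2 ratio of 1.33 against -0.15 over all genes. Isg15 (chr4:156199424-156200818, minus strand) had 116 UMIs in 36 Itgb3-null members and 3 UMIs in 3 control members, or 196 and 13.5 CPM. Irf7 had 88 UMIs in 39 Itgb3-null members and 2 UMIs in 2 control members. Ifit3 had 116 UMIs in 29 Itgb3-null members and 1 UMI in 1 control member, and Ifit1 had 105 UMIs in 25 and 3 UMIs in 3. Oasl2 and Rsad2, antiviral effectors, had 43 and 32 UMIs in Itgb3-null members and 0 in control members. Ifi27l2a, also of this list, was within 2-fold, at 720 CPM in Itgb3-null and 550 CPM in control members, as was Slfn2, a growth regulator of T cells, at 258 and 297 CPM.

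Of 17 tested interferon γ list genes, 9 were 2-fold or more higher and 0 lower (10.9% and 15.8% of all tested genes were). Their median was 1.32. Cxcl10 had 289 UMIs in 27 Itgb3-null members and 1 UMI in 1 control member, or 488 and 4.51 CPM, with 74 UMIs in the highest cell. Cd274, encoding the checkpoint ligand PD-L1, had 73 UMIs in 32 Itgb3-null members and 2 UMIs in 2 control members. Gbp2, a guanylate-binding protein, had 110 UMIs in 40 Itgb3-null members and 8 UMIs in 6 control members. Without the members bearing other markers, 12 of 26 tested type I genes and 9 of 17 interferon γ genes were 2-fold or more higher, with medians of 0.93 and 1.02 and 0 genes lower. Without the highest doublet scores 10 of 24 type I genes were higher, with a median of 0.84. Of the transducers, Stat3, which conveys interleukin-6 family signals, was at 356 CPM in Itgb3-null and 85.6 CPM in control members, and Socs3, the feedback inhibitor it induces, at 191 and 22.5 CPM. Ifngr1, the ligand-binding chain of the interferon γ receptor, was at 1010 CPM in Itgb3-null and 338 CPM in control members.

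MHC class I genes, which present peptides to CD8 T cells, differed less. Of 17 tested genes 3 were 2-fold or more higher and 0 lower, against 10.9% and 15.8% of all tested genes. The list median was 0.48. Tapbp, the peptide-loading factor tapasin, was at 417 CPM in Itgb3-null and 140 CPM in control members, and H2-Q6 at 494 and 131 CPM. H2-Q6 lies among near-identical class I genes, so its reads may be split with its neighbours. B2m, the light chain, was within 2-fold at 2606 CPM in Itgb3-null and 1730 CPM in control members.

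Counted per cell at 2000 UMIs, the type I list had a median of 6 UMIs in Itgb3-null members (0 to 42) and 4 UMIs in control members (0 to 12). At least 3 UMIs were found in 54 of 69 Itgb3-null members (78.3%) and 34 of 53 control members (64.2%), with overlapping intervals. The upper end differed more than the median, since the upper quartile was 11 UMIs in Itgb3-null and 5 UMIs in control members. The interferon γ list had a median of 3 UMIs in Itgb3-null and 2 UMIs in control members. At least 3 of its UMIs were found in 38 of 69 (55.1%) and 21 of 53 (39.6%), with overlapping intervals. For the naive list the medians were 5 and 8, with at least 3 UMIs in 85.5% and 83.0%. The class I list had a median of 29 UMIs in Itgb3-null and 18 UMIs in control members. The cytotoxic list had 11 and 4, with 10 of 69 Itgb3-null and 18 of 53 control members at 0.

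**Figure D3:**
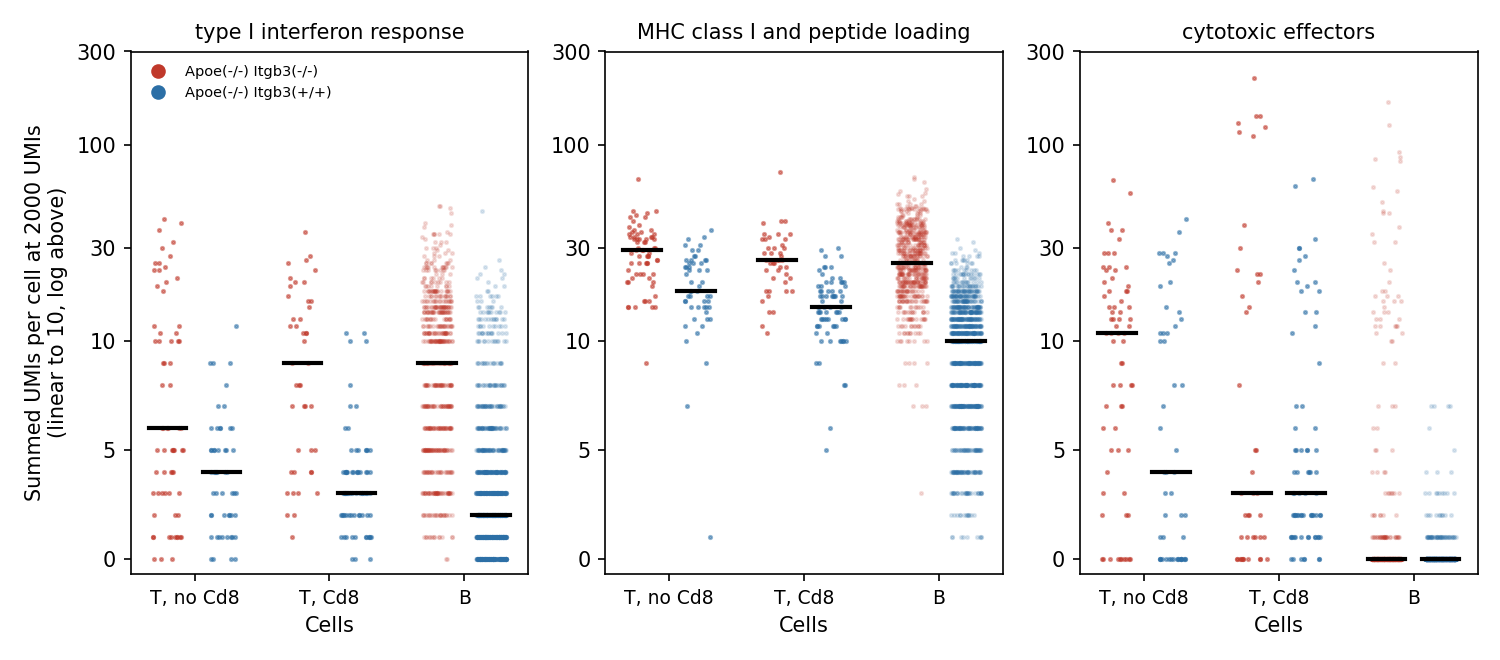
Summed UMIs of 3 gene lists in each cell after thinning to 2000 UMIs (vertical, linear to 10 and logarithmic above), for T cells without Cd8 UMIs, T cells with Cd8 UMIs and B cells, with Itgb3-null cells in red left of control cells in blue and medians as black bars. For the type I list the medians are 6 in Itgb3-null and 4 in control T cells without Cd8 UMIs, 9 and 3 in those with Cd8 UMIs, and 9 and 2 in B cells.

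The same lists in the other lymphocytes of these libraries set a scale. In T cells with Cd8 UMIs, 16 of 22 tested type I genes were 2-fold or more higher in the Itgb3-null library (9.4% of 2713 tested genes were), and 14 of 15 interferon γ genes. None of either list was lower there (12.9% of tested genes were). In B cells 25 of 28 type I genes and 20 of 22 interferon γ genes were 2-fold or more higher (6.93% of 3476 tested genes were), and 0 were lower (9.15% were). The median log2 ratio of the type I list was 1.33 in T cells without Cd8 UMIs, 1.51 in those with Cd8 UMIs and 3.22 in B cells. At least 3 type I UMIs per thinned cell were found in 78.3% of Itgb3-null and 64.2% of control T cells without Cd8 UMIs, against 94.3% of Itgb3-null and 45.0% of control B cells. With 1 library per genotype the difference between these cell types was not tested.

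**Figure D4:**
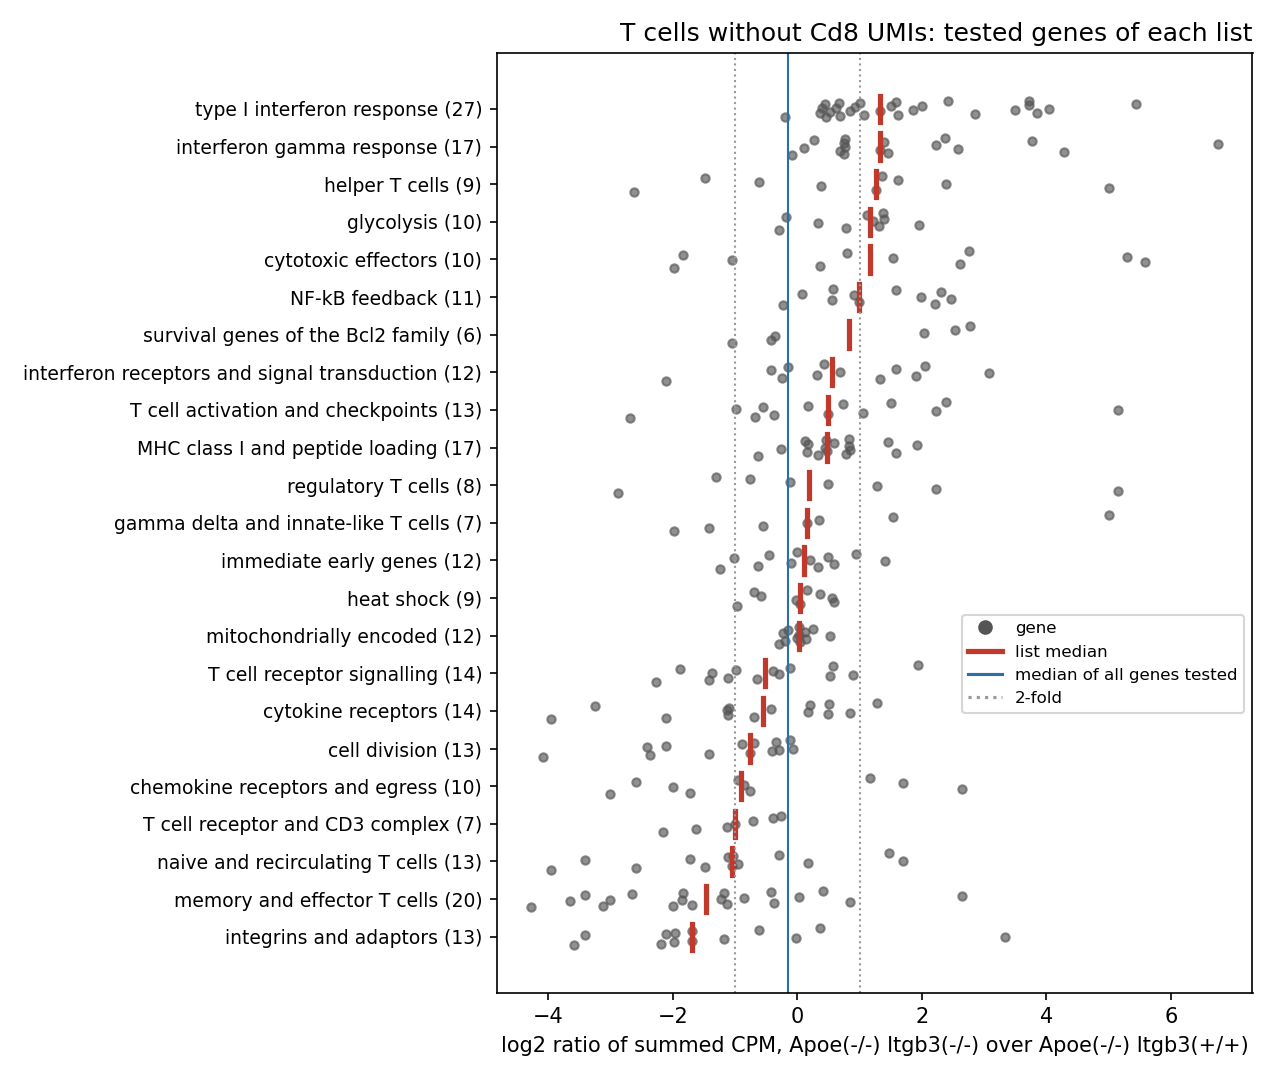
Log2 ratios of summed CPM, Itgb3-null over control, for the tested genes of each list with 5 or more of them in T cells without Cd8 UMIs (number in brackets), as grey points with the list median in red and the median of all tested genes in blue. The interferon lists have medians of 1.33 and 1.32, and the list of integrins and adaptors stands at the other end with -1.70.

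Genes of naive and recirculating T cells were mostly lower in the Itgb3-null members. Of 13 tested genes, 8 were 2-fold or more lower and 2 higher (15.8% and 10.9% of all tested genes were). The list median of -1.06 was -0.72 under TMM scaling, where the median of all tested genes was 0.24 in place of -0.15. Il6ra, the interleukin-6 receptor chain, had 5 UMIs in 4 Itgb3-null members and 29 UMIs in 16 control members. S1pr1, the receptor that lets T cells leave tissue, was at 27.0 CPM in Itgb3-null and 162 CPM in control members, and Klf2, the factor that drives it, at 127 and 419 CPM. Tcf7, a factor of naive and memory T cells, was at 113 CPM in Itgb3-null and 315 CPM in control members, and Il7r at 327 and 712 CPM. Satb1, a chromatin organiser of T cells, stood on the other side, with 565 UMIs in 61 Itgb3-null members and 76 UMIs in 36 control members, or 953 and 342 CPM. Ccr7, the lymph node homing receptor, was at 175 CPM in Itgb3-null and 54.1 CPM in control members, with 30 of its 104 Itgb3-null UMIs in the member with class II transcripts, and its log2 ratio of 1.70 was 0.97 without the members bearing other markers.

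Memory and effector genes were also mostly lower. Of 20 tested genes 13 were 2-fold or more lower and 1 higher (15.8% and 10.9% of all tested genes were). The list median was -1.46. Crip1, a small LIM protein of effector and memory T cells, had 102 UMIs in 38 Itgb3-null members and 240 UMIs in 54 control members, or 172 and 1082 CPM. Lgals1 (galectin-1) had 28 UMIs in 14 Itgb3-null members and 112 UMIs in 25 control members, and S100a6 35 UMIs in 15 and 114 UMIs in 27. The chemokine receptors Cxcr3 and Cxcr6 were at 37.1 and 21.9 CPM in Itgb3-null members and at 149 and 176 CPM in control members. In T cells with Cd8 UMIs, 9 of 16 naive genes and 8 of 15 memory genes were 2-fold or more lower in the Itgb3-null library. Of 2713 genes tested in those cells, 12.9% were lower.

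Genes of integrins, the family of the deleted gene, and of their adaptors were lower in most cases. Itgb3 itself (chr11:104608000-104670476, plus strand) had 9 UMIs in 6 Itgb3-null members and 10 UMIs in 8 control members, or 15.2 CPM (6.94 to 28.8) and 45.1 CPM (21.6 to 82.9). It had too few UMIs to be tested, and the labels do not say which exons were deleted, so a 3′ tag may lie outside them and does not check the label. Apoe, absent by label from both, had 4 and 7 UMIs. Itgb7, the β7 chain of the gut-homing α4β7 integrin (chr15:102215995-102231944, minus strand), had 14 UMIs in 11 Itgb3-null members and 63 UMIs in 36 control members, or 23.6 and 284 CPM, a 12.0-fold lower level (6.66 to 23.2). Itgal and Itgb2, the chains of LFA-1, were at 47.2 and 38.8 CPM in Itgb3-null members and at 216 and 153 CPM in control members, and Itgb1 was at 94.5 CPM in Itgb3-null and 306 CPM in control members. Rasgrp2, which turns on the integrin activator Rap1, had 11 UMIs in 11 Itgb3-null members and 44 UMIs in 24 control members. Itgav, the αv partner of β3, was higher, with 81 UMIs in 36 Itgb3-null members and 3 UMIs in 3 control members. Of 13 tested genes of this list of integrins and adaptors 9 were 2-fold or more lower and 1 higher, with a median of -1.70. The shares of all tested genes were 15.8% lower and 10.9% higher. Without the members bearing other markers 9 of 13 were lower (median -1.80). In T cells with Cd8 UMIs 6 of 13 were lower and 1 higher (12.9% and 9.4% of genes tested there were).

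Other genes with the largest deficits came from single control members. Lyz2, a lysozyme of myeloid cells, had 2 UMIs in Itgb3-null members and 218 UMIs in control members, 213 of them in 1 cell. Car2 and Car1, carbonic anhydrases of erythroid cells, had 110 of 115 and 44 of 45 control UMIs in another single cell, and Dntt, the lymphoid precursor transferase, had all 35 in the third. Without the members bearing other markers, the log2 ratio of Lyz2 was -2.98 and that of Car2 was -2.40, and Car1 and Dntt no longer had enough UMIs to be tested. Rgs10, a regulator of G protein signals, was spread over cells, with 4 UMIs in 3 Itgb3-null members and 46 UMIs in 29 control members. Of the 13 tested cell division genes 5 were 2-fold or more lower and 0 higher (15.8% and 10.9% of all tested genes were). Their median was -0.75. Without the members bearing other markers 3 of 9 were lower and 1 higher (median -0.18), and without the highest doublet scores 1 of 7 was lower and 0 higher (median 0.15). Mki67, the proliferation marker, had 8 UMIs in 3 Itgb3-null members and 51 UMIs in 4 control members, 29 of them in 1 cell and 20 in the member with erythroid transcripts.

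Genes of NF-kB feedback and glycolysis stood above the all-gene median. Tnfaip3, the A20 inhibitor of NF-kB, had 198 UMIs in 62 Itgb3-null members and 16 UMIs in 14 control members, and Nfkbia, which holds NF-kB in the cytoplasm, had 379 UMIs in 56 and 36 UMIs in 22. In that list 5 of 11 tested genes were 2-fold or more higher and 0 lower. Beside the main counts of this and the lists below, 10.9% of all tested genes were 2-fold or more higher and 15.8% lower. Of 10 glycolysis genes 6 were higher and 0 lower, which was 3 without the highest doublet scores and 2 by the mean of single cells, among them Pkm, a pyruvate kinase, at 784 CPM in Itgb3-null and 203 CPM in control members. Bcl2l11, encoding the death promoter BIM, had 183 UMIs in 60 Itgb3-null members and 10 UMIs in 7 control members, while Bcl2, its opponent, was at 351 CPM in Itgb3-null and 730 CPM in control members. No gene of the heat shock list (9 tested) or of the mitochondrially encoded list (12 tested) reached 2-fold in either direction. Their medians were 0.04 and 0.03, though the mitochondrial share had itself been limited by the rule. Without the members bearing other markers 1 of 8 heat shock genes was 2-fold or more higher and 0 lower, with a median of 0.68. Without the highest doublet scores 0 of 9 were higher and 1 lower (median 0.11). Of the remaining lists, 5 of 9 helper genes were 2-fold or more higher and 2 lower, as were 3 and 2 of 8 regulatory, 2 and 2 of 7 γδ and innate-like, 5 and 1 of 12 interferon receptor and signalling, and 5 and 1 of 13 activation genes. Il17a, with all its UMIs in 1 member, counts as higher in the helper and in the γδ and innate-like list. Without the highest cell of each gene 3 of 6 helper genes were higher and 1 lower, and 1 and 2 of 6 γδ and innate-like genes. Without the members bearing other markers the activation counts were 4 and 3 of 13, with a median of 0.02 in place of 0.49. With the highest doublet scores removed 3 of 9 helper genes were higher. The counts were 1 higher and 6 lower of 14 cytokine receptor genes, 3 and 4 of 10 chemokine receptor genes, 1 and 2 of 12 immediate early genes, 3 and 1 of 6 Bcl2 family genes, and 0 and 1 of 3 cholesterol genes. The median of the Bcl2 family list was 0.83, but -0.35 by the mean of single cells, -0.33 without the highest doublet scores and -0.28 without the highest cell of each gene. Without that cell 3 of 11 cytokine receptor genes were lower.

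Within each library the members were also set against T cells with Cd8 UMIs, a comparison in which both cell sets share a library. Members bearing other markers were kept in it, among them the 3 that held 18.7% of the control members' UMIs. Their part in the genes below was not tested. Of 2781 genes tested in the Itgb3-null library, 167 (6.01%) were 2-fold or more higher and 47 (1.69%) lower in members. Of 2470 tested in the control library, 156 (6.32%) were higher and 39 (1.58%) lower. Over the 2058 genes tested in both libraries, 20 were 2-fold or more higher in members in both and 5 were lower in both, 2 of which were Cd8a and Cd8b1, which chose the cells. The other 3 lower ones were Lef1, a factor of naive T cells, Grap2, an adaptor of receptor signalling, and Fam241a. Lef1 was at 87.7 CPM in members and 220 CPM in T cells with Cd8 UMIs of the Itgb3-null library, and at 180 and 427 CPM in the control library.

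Of the 20 higher genes, Trdc had 77 UMIs in Itgb3-null members and 0 in Itgb3-null T cells with Cd8 UMIs, and 26 and 5 UMIs in the control library. Ikzf2 was at 182 CPM in members and 45.0 CPM in T cells with Cd8 UMIs of the Itgb3-null library, and at 451 and 75.2 CPM in the control library. Fcer1g, an adaptor chain of Fc and NK receptors, was at 294 CPM in members and 34.4 CPM in T cells with Cd8 UMIs of the Itgb3-null library, and at 230 and 105 CPM in the control library. Klrk1, Il2rb and Itgb1 were higher in both as well, as were S100a6, the antiviral membrane protein gene Ifitm3, and Fth1, the ferritin heavy chain, at 3355 and 1264 CPM in the Itgb3-null and 2294 and 857 CPM in the control library. Of 83 ribosomal protein genes, 77 were lower in members in the Itgb3-null and 79 in the control library, by a median of 1.15-fold and 1.30-fold.

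**Figure D5:**
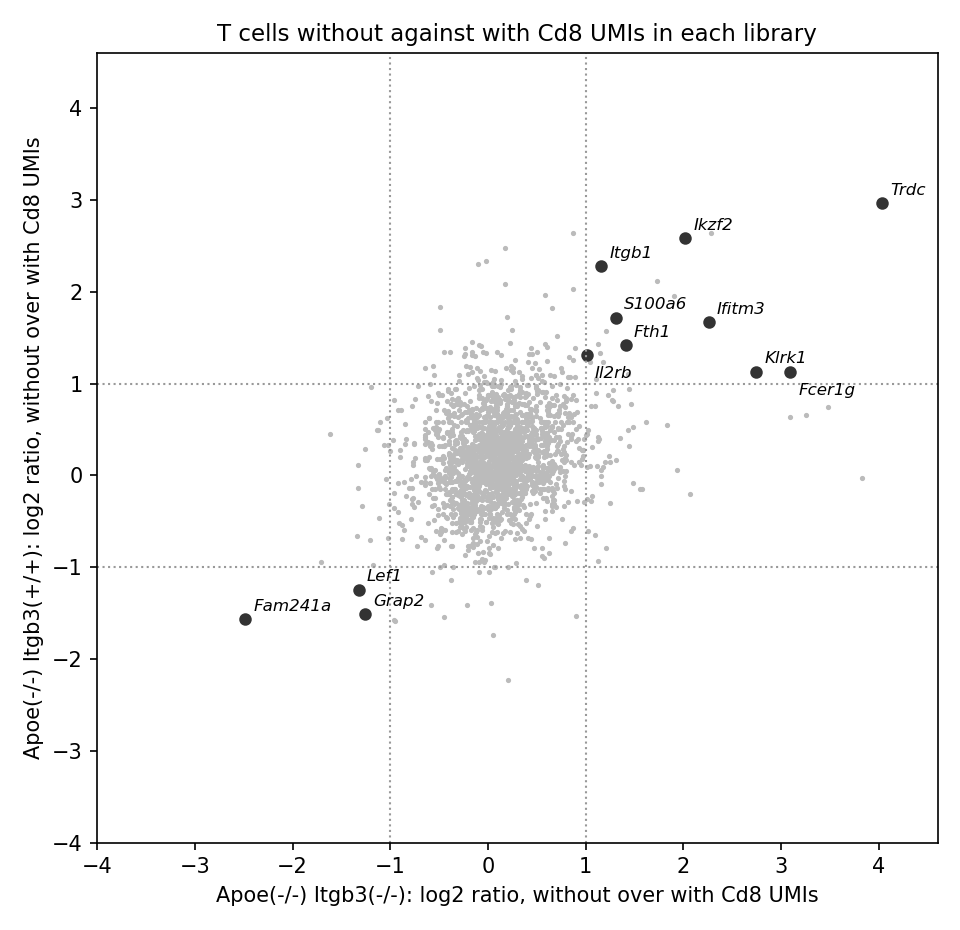
Log2 ratio of summed CPM in T cells without over those with Cd8 UMIs, in the Itgb3-null library (horizontal) and the control library (vertical), for 2058 genes tested in both. Named genes beyond the dotted 2-fold lines on the upper right (Trdc, Ikzf2, Fcer1g and others) and lower left (Lef1, Grap2, Fam241a) differ in both libraries, and Cd8a, Cd8b1, Xcl1 and Cd74 lie outside the axes. Trdc is drawn at its bound in the Itgb3-null library, where T cells with Cd8 UMIs had none.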

How the data were processed

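Bone marrow cells were sequenced by the authors, and the deposited matrices hold raw counts of UMIs per gene and barcode. Cell Ranger 3.0, Seurat and mm10 appear in the submitters' processing notes, whereas the matrix headers carry version 3.1.0. The sum of UMIs was 44694854 in 4281 Itgb3-null barcodes and 79192158 in 12764 control barcodes. Coordinates are those of GENCODE vM21 for GRCm38, which is mm10, and count from 1.

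UMIs of members were summed per library and divided by their total to give CPM. Sums carry exact Poisson, ratios conditional binomial and shares Clopper-Pearson 95% intervals, computed with scipy 1.17.1, and they cover counting error only. With 0 UMIs in 1 library a floor of 3 UMIs over its members was used, and such genes entered medians at that bound. The code was tested on simulated data. Doublets were kept, and an alternative removed the highest Scrublet scores (scanpy 1.11.5). TMM factors came from edgeR 4.0.16 in R 4.3.3. Named genes are those of the rule, Itgb3, Apoe, the 15 highest and 15 lowest by the interval bound nearest 1 (predicted genes, receptor segments and sex-linked genes left out), and genes of 24 lists. Genes named outside this were chosen after their values were seen. The members and lists were chosen with earlier results of these data known.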

Additional observations from a re-analysis of the deposited data

How the results depend on the processing

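The ratio of shares kept its direction under all 7 alternatives, between 3.12 with at least 3 T cell UMIs and 4.14 with a mitochondrial limit of 5%. Genes 2-fold higher and lower in Itgb3-null members, 342 and 496, numbered 584 and 266 with TMM factors and 770 and 1382 with a minimum of 10 UMIs and no CPM minimum. Thinning members to 2000 UMIs left 137 and 144, the mitochondrial limit of 5% left 197 and 199, and the members with a Cd4 UMI, of which there were 8 and 19, left 98 and 67. The cause was not tested, beyond the shift of the whole scale by TMM factors and the fewer genes that thinning and fewer cells leave to test. Chosen after the data were seen were the removal of members with other markers (378 and 460) and of the highest cell of each gene (346 and 358).

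Among the receptor, naive, memory, cytotoxic, class I and both interferon lists, medians moved beyond the median bounds of their genes' counting intervals in the 9 cases given next. TMM factors move every gene by the same amount, and with them the median of all tested genes was 0.24. The cause of the other cases was not tested. The receptor list was -0.66 with TMM factors, -1.39 in members with a Cd4 UMI and -1.29 without members bearing other markers. The naive list, -1.06, was -0.72 with TMM factors. The memory list, -1.46, was 0.03 in members with a Cd4 UMI, with 5 genes tested in place of 20. The cytotoxic list, 1.16, was 3.25 with the mitochondrial limit of 5%, 0.65 with at least 3 T cell UMIs and 1.87 in members with a Cd4 UMI, where 1 gene was tested in place of 10. The class I list, 0.48, was 0.92 in members with a Cd4 UMI. Of the medians of the remaining lists 21 of 183 were outside those bounds, and 33 differed in sign from the main value. Of single gene values 171 of 994 were outside their interval and 7 differed in sign. A main value of 2-fold or more turned round in 5 of these. The list of integrins and adaptors was 1.50 on 1 tested gene in place of 13 in members with a Cd4 UMI. Mki67 was 0.40, Lgals1 0.10 and Itgb1 0.32 in those members, and Il2ra was -0.16 after thinning.

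No paired analysis was possible because each genotype is 1 library, and with it left out nothing remained to compare. A control UMI stands for 4.51 CPM, and genes with 1 to 3 control UMIs have wide intervals.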
